A study of Sus scrofa with 92 samples.

Results

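At FR20, 20 hours after resuscitation began, the liver was sampled from 5 carbohydrate prefed (CPF) and 18 fasted (FS) pigs, and these 23 of the 92 libraries of the series were compared. Members were taken by the fed status and time point in the sample labels, and by the labels each animal gave 1 library. All animals were male Yorkshire-Landrace pigs fasted overnight, and CPF animals then received a bolus of Karo syrup, a mixture of sugars, before anesthesia was induced. Every animal of both groups was instrumented, splenectomized, given a blunt chest injury, bled into shock, given a liver crush injury, and resuscitated with fluid, shed blood and ventilator support. No uninjured animal was part of the comparison, and biopsies were cut from the periphery of a liver that had been crushed. According to the labels 3 CPF animals lived and 2 died (CPF 2 and CPF 3), while 15 FS animals lived and 3 died (FS 2, FS 12 and FS 15). The comparison asks whether a carbohydrate meal taken before hemorrhagic shock still marked liver RNA late in resuscitation. It is set beside Baseline (B, after instrumentation) and beside 2 and 8 hours of resuscitation (FR2 and FR8).

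The liver stores glucose as glycogen after a meal and makes glucose, and ketone bodies from fatty acids, during a fast. Insulin drives glycogen and fatty acid synthesis, while glucagon, glucocorticoids and the nuclear receptor PPARA drive the fasting program. After trauma, hepatocytes also turn to acute phase proteins, and chaperones of the cytosol (heat shock proteins) and of the endoplasmic reticulum (the unfolded protein response) are made when proteins misfold.

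The CPF libraries held 7182282 to 12371875 counts on genes and the FS libraries 8540967 to 16613261. Hepatocyte markers were abundant in all 23 libraries. The 11 hepatocyte markers that were tested, among them albumin (ALB), transferrin (TF) and fibrinogen (FGB), summed to 33800 to 282000 CPM (counts scaled to a common library size after TMM normalization) in CPF, and to 30400 to 181000 in FS. Of 7 mesothelial markers 2 could be matched and 0 passed the filter on low counts, so tissue of the liver surface could not be assessed. Striated muscle markers summed to 0.106 to 0.572 CPM in CPF and to 0.0822 to 106 in FS. FS 3 (106 CPM), FS 11 (101.6), FS 14 (34.87) and FS 6 (6.434) stood above the other FS libraries.

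The expression of 6 of the 23 libraries was nearer to another time point than to the FR20 of their label. Each library was correlated (Pearson, log2 CPM over genes) with the libraries of other animals at each time point, and the median was taken. The library labelled CPF 4 was nearest to Baseline (0.955, against 0.940 with FR20). FS 13, FS 14 and FS 16 were nearest to FR2 (0.954, 0.942 and 0.962, against 0.934, 0.914 and 0.938), and FS 6 and FS 15 to FR8 (0.944 and 0.958, against 0.936 and 0.951). CPF 3 sat at 0.955 with both FR8 and FR20. In all, 21 of 91 libraries of the series were nearest to a time point other than their own. A second check used the 150 genes with the largest share of variance between animals as labelled. Choosing genes by the labels favors agreement with them, so agreement is partly built in. Over these genes 22 of the 23 libraries correlated best with another library of their own animal. The exception was the library labelled CPF 4, whose best correlation was 0.795 with the FR8 library of FS 7 and only 0.193 with another library of its own animal. The library labelled FS 7 at FR2 in turn was nearest to FR20 (0.961, against 0.925 with FR2) and to the FR8 library of CPF 4 (0.757, against 0.1 with its own animal). Whether the library labelled CPF 4 came from that CPF animal is therefore in doubt, and the 5 CPF libraries are 5 CPF animals only by their labels. No library was moved to another group. Results are given for all 23 libraries, without the library labelled CPF 4 (4 CPF, 18 FS), and without all 6 libraries (4 CPF, 13 FS). Leaving out libraries for being unlike the rest of their time point narrows the spread, so p-values from the last set are too small by an amount that is not known.

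**Figure D1:**
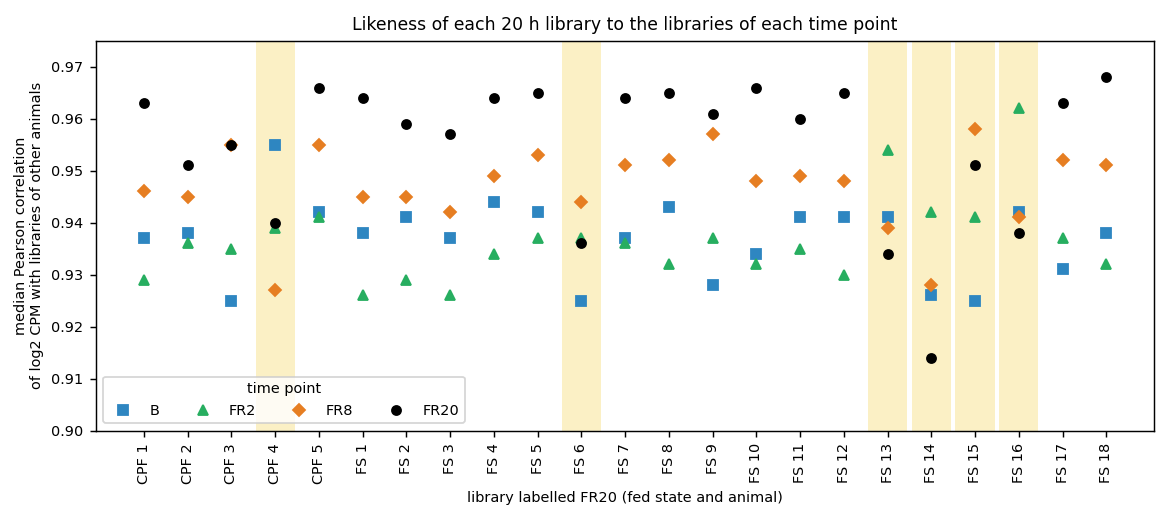
Median Pearson correlation (vertical axis) of each library labelled FR20 (horizontal axis) with the libraries of other animals at B (squares), FR2 (triangles), FR8 (diamonds) and FR20 (circles). Shading marks the 6 libraries, CPF 4, FS 6, FS 13, FS 14, FS 15 and FS 16, whose highest value was with a time point other than FR20.

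No gene passed the test between CPF and FS at FR20. Of 12307 genes tested, edgeR's quasi-likelihood test called 0 (0%) at an adjusted p under 0.05 and a 2-fold change, and 0 with the adjusted p alone. The smallest adjusted p was 0.605. At an unadjusted p under 0.05 there were 192 genes higher in CPF (1.56%) and 208 lower (1.69%), 400 in all. For no gene (0%) did all CPF libraries lie on 1 side of all FS libraries. The median log2 fold change (CPF over FS) was -0.01 and its median standard error 0.265. The 95% interval of the fold change lay within 2-fold in both directions for 8750 genes (71.1%), so a larger difference was outside the interval for these genes and within it for the rest. DESeq2's Wald test called 2 genes, both lower in CPF. With 1 library per animal by the labels, p-values measure the spread between animals as they are labelled.

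Without the library labelled CPF 4, 0 of 12265 genes (0%) were called, with 192 higher (1.57%) and 233 lower (1.90%) at an unadjusted p under 0.05. Of the 400 genes named above, 191 kept an unadjusted p under 0.05 in the same direction and 29 changed sign, all 29 among those higher in CPF. CPF 4 was the outermost of the 23 libraries in 139 of the 400. Without all 6 libraries, 2 of 12005 genes (0.0167%) were called, with 750 higher (6.25%) and 563 lower (4.69%) at an unadjusted p under 0.05. The median standard error was 0.221 in that set.

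MBL2, the mannose-binding lectin that hepatocytes secrete to opsonize microbes, was the gene with a symbol that differed most clearly. It was at 29, 26.4, 45.1, 58 and 15.3 CPM in CPF 1 to 5, against 18.1 to 557 CPM (median 165) in FS. Of the 18 FS libraries 16 lay above the highest CPF library, which was CPF 4, and the other two fell within the CPF range. The log2 fold change was -2.52 ± 0.60 (SE, as in all fold changes below, p = 0.000263, adjusted p = 0.905, edgeR's quasi-likelihood test), -2.78 without CPF 4 and -2.73 without the 6 libraries. DESeq2 called it in each of the 3 sets, with adjusted p of 0.00231, 0.0016 and 0.00018. On the scale of all 91 libraries the Baseline median was 106 CPM in CPF (10.6 to 1130) and 533 in FS (0 to 1460). The medians in CPF and FS were 72.6 and 303 at FR2, and 68.9 and 66.1 at FR8.

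ENSSSCG00000024853, which has no symbol in the tables used here, was higher in CPF. It was at 2161, 2524, 358, 1767 and 2470 CPM in CPF 1 to 5, against 314 to 1890.2 CPM (median 534) in FS. CPF 3 lay near the bottom of the FS range, and the other CPF libraries were above all but the highest FS library or above them all. The log2 fold change was 1.53 ± 0.34 in 23 libraries (p = 0.000152), 1.55 without CPF 4 and 2.00 without the 6 libraries, where edgeR's quasi-likelihood test called it (adjusted p = 0.0126). On the scale of all 91 libraries its medians in CPF and FS were 2320 and 929 CPM at Baseline, 2950 and 936 at FR2, 879 and 579 at FR8, and 1910 and 477 at FR20. ENSSSCG00000011673, also without a symbol, was at 22.7, 25.1, 20.6, 20.8 and 21.2 CPM in CPF, while 17 of 18 FS libraries lay above the highest of these, with 20.3 to 91.2 CPM (median 44) in all. It had the smallest p of all genes (4.92e-05, log2 fold change -1.09 ± 0.22), and -1.05 without the 6 libraries.

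Other genes that were lower in CPF kept their direction in all 3 sets, except that ADAMTS16 was not tested without the 6 libraries. HSPA8, the constitutive cytosolic chaperone, was at 28.8, 24.8, 84.8, 40.9 and 82.8 CPM in CPF and 49.2 to 234 CPM (median 112) in FS, with 12 FS libraries above every CPF library. MGLL, which cleaves monoacylglycerol, was at 6.45, 7.81, 12.9, 6.78 and 10.5 CPM against 8.75 to 27.1 CPM (median 13.9) and had a log2 fold change of -0.78 ± 0.24. The stress kinase MAPK14 (p38) was at 117.7 (CPF 2) to 197.8 CPM (CPF 5) in CPF against 159.5 to 352 CPM (median 204), a log2 fold change of -0.52 ± 0.17. For each of these the CPF range began below the lowest FS library and ended inside the FS range. PATL1, a component of mRNA decay, differed by -0.52 ± 0.16, with 16 FS libraries above the highest CPF library. SUFU, an inhibitor of hedgehog signaling, differed by -1.38 ± 0.44 at under 4 CPM in every library, and GABARAP, an autophagy protein, by -1.87 ± 0.56 at under 3 CPM. FAM174B (-1.06 ± 0.32), TRIM27 (-0.54 ± 0.18) and ADAMTS16 (-1.97 ± 0.65, at most 1.21 CPM) complete the 10 with the smallest p among genes lower in CPF that have a symbol.

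Of the 192 genes higher in CPF at an unadjusted p under 0.05, 92 kept it without CPF 4 and 29 changed sign. Among the 10 with a symbol and the smallest p, both kinds occurred. KIAA0825 was at 1.42, 0.845, 2.5, 0.529 and 1.2 CPM in CPF against 0.125 to 1.22 CPM (median 0.514) in FS, with a log2 fold change of 1.32 ± 0.37 in 23 libraries and 1.52 without CPF 4. FAM98C (0.87 ± 0.28, then 1.01) and C16orf87 (0.57 ± 0.18, then 0.72) also kept their size. FOXO1, which drives gluconeogenic genes when insulin is low, was at 27.4, 39.7, 27.4, 169 and 25.4 CPM in CPF against 20 to 36.7 CPM (median 27.7) in FS, and its log2 fold change of 1.06 ± 0.27 became 0.12 without CPF 4. FASN, the fatty acid synthase, was at 12.5, 14.7, 10.1, 438 and 24.1 CPM in CPF against 6.09 to 76.9 CPM (median 13.7) in FS, and 2.07 ± 0.66 became -0.62. In both of these genes CPF 4 lay above all 22 other libraries and the remaining CPF libraries lay inside the FS range or just above it. SIK1, a kinase induced by glucagon signaling (1.797, then -0.01), LPIN1, a phosphatidate phosphatase (1.84 ± 0.58, then -0.34), C3orf58 (1.74 ± 0.52, then -0.43) and FAM214A (1.29 ± 0.41, then -0.13) did the same.

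**Figure D2:**
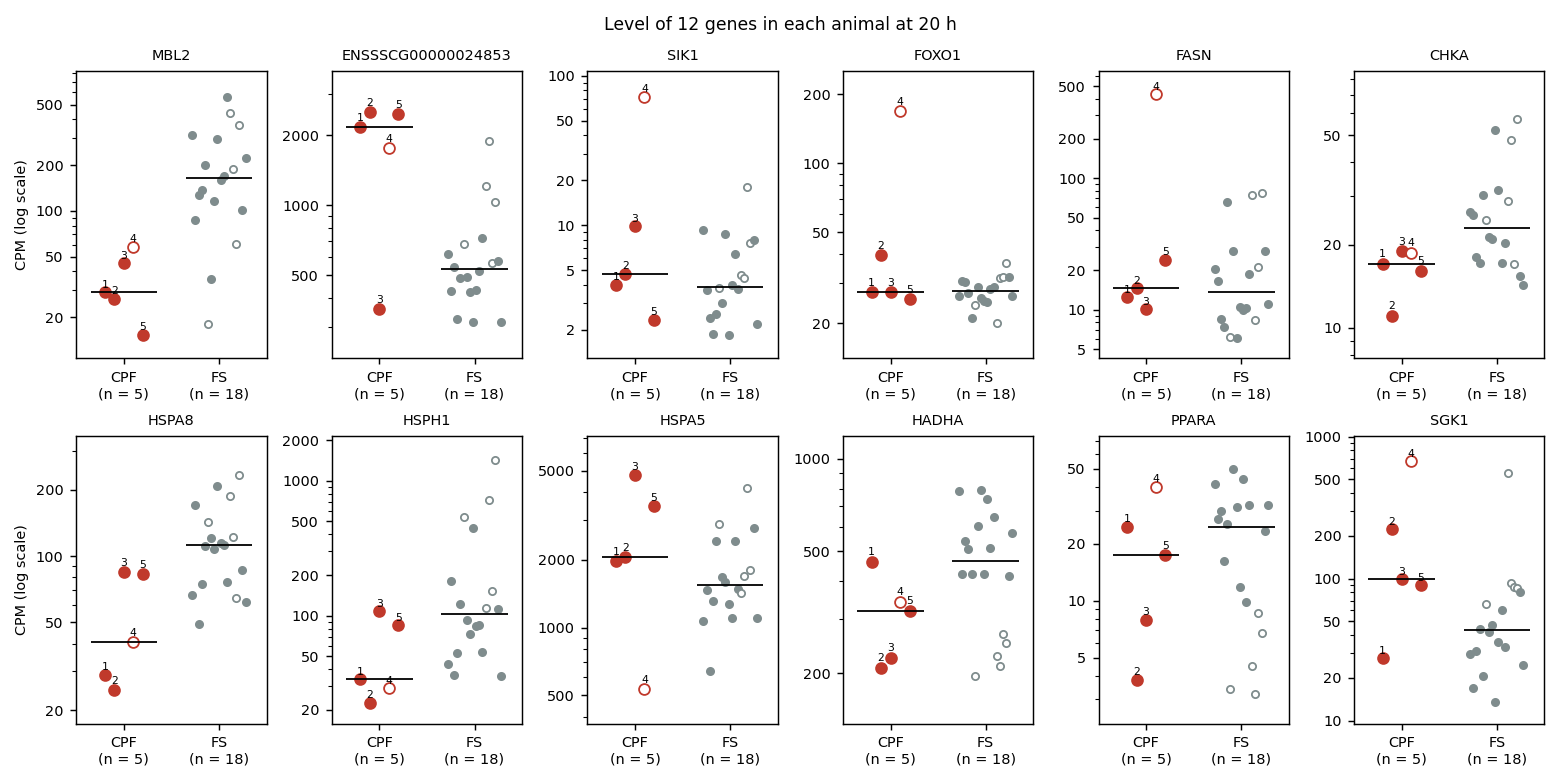
CPM on a log axis (vertical) of 12 genes in each library at 20 h, CPF (red, numbered by animal) and FS (gray), with the group median as a line. Open circles are the 6 libraries nearest to another time point. MBL2 is lower in CPF with or without them, while SIK1, FOXO1 and FASN are highest in CPF 4.

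**Figure D3:**
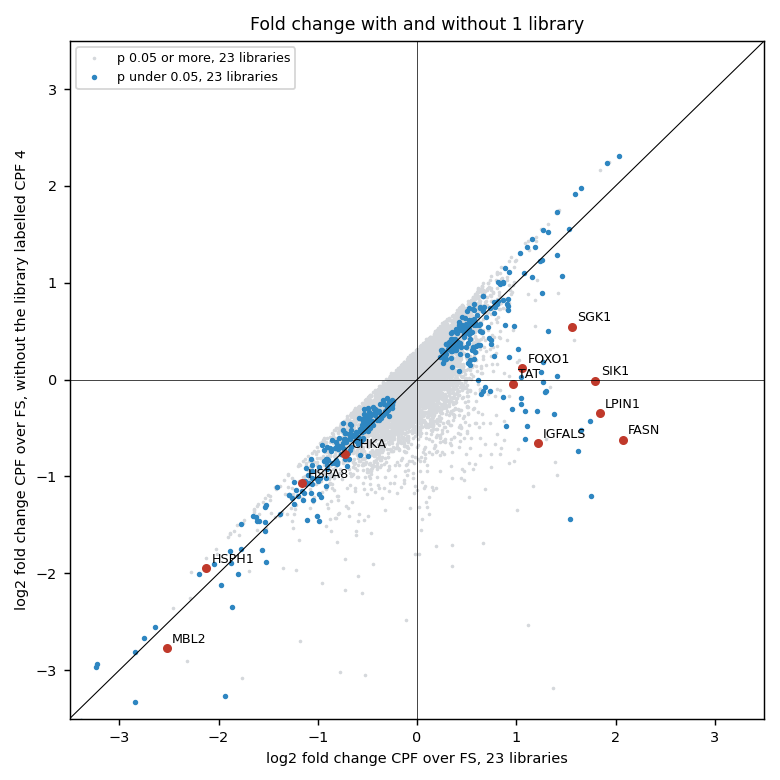
Log2 fold change of each gene in 23 libraries (horizontal) against the value without the library labelled CPF 4 (vertical), with genes at an unadjusted p under 0.05 in 23 libraries in blue and 11 named genes in red. The line marks equal values. Most blue points left of 0 stay near the line, and a group at the right, among them FASN, LPIN1, SIK1 and IGFALS, drops to 0 or below.

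Gene lists for pathways of fed and fasted liver, of injury and of cell types are described by the number of members that passed an unadjusted p of 0.05 and by the median log2 fold change. Beside them stand the values over all genes tested. These were a median of -0.01 with 192 higher and 208 lower in 23 libraries, and -0.03 with 192 and 233 without CPF 4. Without the 6 libraries they were 0.01 with 750 and 563. In that last set with survival as a term, the median was 0.01 with 447 higher and 517 lower of 12005 genes. Among its survivors it was -0.01 with 177 and 194 of 11700. Below 0 were 6439 of 12307 genes in 23 libraries, 6713 of 12265 without CPF 4 and 5881 of 12005 without the 6 libraries. No member of any pathway list was called in 23 libraries or without CPF 4. Members named below that come from neither the extremes of a list nor an unadjusted p under 0.05 in 23 libraries were chosen after their values were seen.

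Genes of glucose sensing and glycolysis showed no shared direction. Of 12 tested, 1 was higher in CPF at an unadjusted p under 0.05, and the list median was 0.03 (-0.06 without CPF 4). That gene was MLXIPL (ChREBP), which senses carbohydrate and was at 58.7, 90, 31, 113 and 53.4 CPM in CPF against 16.2 to 75.6 CPM (median 50.2) in FS, with a log2 fold change of 0.50 ± 0.24 (0.25 without CPF 4). GAPDH had the lowest fold change of the list, -0.26 ± 0.21.

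Gluconeogenic genes had a median of 0.04 over 9 tested, and -0.37 without CPF 4. PC, pyruvate carboxylase, was at 603, 452, 219.5, 349.5 and 464 CPM in CPF and 300.2 to 1049 CPM (median 563) in FS, the lowest fold change of the list (-0.60 ± 0.29, p = 0.0501). It was -0.75 without the 6 libraries (p = 0.00668). FOXO1, described above, was the highest. Of 11 glycogen genes 0 passed in either direction, with a median of 0.13. Their highest fold change was in PHKA2, a phosphorylase kinase subunit (0.39 ± 0.25), and their lowest in UGP2, which makes UDP-glucose (-0.40 ± 0.41, and -1.01 without CPF 4). GYS2, the liver glycogen synthase, was at 226, 119.9, 69.5, 845 and 182 CPM in CPF against 62 to 526 CPM (median 244) in FS. It differed by 0.20 ± 0.40 in 23 libraries and by -0.60 without the 6 libraries. Of the 8 kinases and phosphatases of pyruvate dehydrogenase 0 passed. PDK4, which is induced by fasting and spares glucose, was at 108, 73.4, 165, 497 and 17.1 CPM in CPF and 54.3 to 859 CPM (median 139) in FS, and its fold change moved from -0.50 ± 0.61 to -1.41 without CPF 4 (p = 0.0434).

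Fatty acid and cholesterol synthesis depended on 1 library. Among 13 fatty acid synthesis genes 3 were higher in CPF and 0 lower in 23 libraries (median 0.11), and 0 and 0 without CPF 4 (median -0.46). The 3 were FASN, LPIN1 and ACACA, the acetyl-CoA carboxylase of hepatocyte cytosol, which was at 20.3, 8.97, 9.65, 112 and 11 CPM in CPF. Over 16 cholesterol genes 0 passed, with a median of 0.17 that became -0.20 without CPF 4. INSIG1, which holds back sterol synthesis, was at 226, 185, 187, 1957 and 158 CPM in CPF against 55.8 to 782 CPM (median 289.9) in FS. CPF 4 was above every other library there too. On the insulin and IGF axis 2 of 13 were higher, FOXO1 and IGFALS, which carries IGF in blood (1.21 ± 0.55, then -0.65), and 1 was lower, CHKA.

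Fatty acid oxidation and ketogenesis genes lay below 0. In 23 libraries 17 of 21 had a negative fold change, 1 of them with an unadjusted p under 0.05, and the median was -0.25. Without CPF 4 it was 20 of 21 and -0.39. Without the 6 libraries 13 of 21 were lower in CPF at an unadjusted p under 0.05 and 0 higher (median -0.49). HADHA, the trifunctional enzyme subunit of mitochondrial β-oxidation, was at 459.5, 207, 224, 340.3 and 319 CPM in CPF against 195 to 792 CPM (median 465) in FS, with -0.61 ± 0.30 in 23 libraries (p = 0.0551) and -0.89 without the 6 (p = 0.00079). CPF 1 was near the FS median and the other CPF libraries were below it. CPT1A, which admits fatty acids to mitochondria, was at 473, 148, 163, 389 and 256 CPM in CPF against 181 to 665 CPM (median 362) in FS (-0.44 ± 0.30, then -0.74). PPARA, the receptor that drives this program, was at 24.5, 3.8, 7.86, 39.8 and 17.6 CPM in CPF and 3.19 to 49.8 CPM (median 24.5) in FS (-0.26 ± 0.55, then -1.09). CPF 2 and CPF 3, the animals that died, were the lowest CPF libraries for these 3 genes, which were chosen after their values were seen. ETFDH (-0.49), HADH (-0.53), ACADL (-0.84), BDH1 (-0.92) and CPT2 (-0.65) were also lower without the 6 libraries. ACADVL, the member that passed in 23 libraries, was at 0.903, 0.422, 3.57, 0.529 and 0.495 CPM in CPF and 0.232 to 12.7 CPM (median 5.71) in FS, low levels that split the FS animals widely. FGF21, a hormone of fasting liver, had the highest fold change of the list (1.08 ± 0.81), from CPF 5 at 214 CPM against at most 14.5 CPM in the other CPF libraries and a highest value of 159 in FS.

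The level of this list in each animal, the median over its genes of log2 CPM minus the FS median, was -0.09, -0.36, -0.84, 0.11 and -0.48 in CPF 1 to 5. CPF 5, which lived, was thus below CPF 2, which died. FS ranged from -1.06 to 0.41 with a median of 0.02. Of the FS animals that died, FS 2 and FS 12 were at 0.33 and 0.27 and FS 15 at -0.58. The lowest FS animals were FS 6, FS 13, FS 14 and FS 15, at -1.06, -0.63, -0.60 and -0.58, all 4 among the libraries nearest to another time point. With survival as a term and without the 6 libraries, 11 of 21 were lower and the median was -0.50. Among survivors alone, 2 CPF against 11 FS, 2 were lower and 1 higher, and the median was -0.35. Of the 4 CPF animals in that set 2 had died, against 2 of 13 FS animals.

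Bile acid and urea cycle lists moved from above 0 to below 0 without CPF 4. Of 11 bile acid genes 1 was higher in CPF in 23 libraries (median 0.19), and 5 were lower without the 6 libraries (median -0.45). With survival as a term 5 were lower in that set too (median -0.45), while among its survivors 1 was lower and the median was -0.05. CYP7A1, the rate-limiting enzyme of bile acid synthesis, was at 65.2, 145, 22.7, 193 and 69 CPM in CPF and 0.345 to 148 CPM (median 27.4) in FS, with 1.46 ± 0.66 in 23 libraries (p = 0.0359) and 1.07 without CPF 4. ABCC2, an export pump of the bile canaliculus, was at 395, 219, 262, 121 and 251 CPM in CPF against 52.3 to 606 CPM (median 423) in FS (-0.62 ± 0.40, and -0.75 without the 6 libraries). BAAT, which conjugates bile acids, was at 52.1, 49.1, 42.5, 827 and 21.6 CPM in CPF, and its fold change turned from 1.17 ± 0.58 to -1.09 without CPF 4. Among 17 urea cycle and amino acid genes TAT, the tyrosine aminotransferase, was at 1105, 1852, 608, 7279 and 1232 CPM in CPF against 511 to 2078 CPM (median 1193) in FS, and 0.96 ± 0.37 became -0.04. CPS1, the first enzyme of the urea cycle, went from -0.21 ± 0.29 to -0.71 (p = 0.0158).

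Albumin and other negative acute phase proteins had a median of 0.01 over 11 tested, and -0.31 without CPF 4, when all 11 were negative and 0 passed. ALB was at 30070, 21070, 28220, 220400 and 17370 CPM in CPF and 10798 to 125310 CPM (median 31268) in FS. Positive acute phase proteins (10 tested, 0 passed) had a median of -0.16. Their lowest was FGB at -0.61 ± 0.35 and their highest ITIH4 at 0.14 ± 0.48. Apolipoproteins (8 tested, 0 passed) had a median of -0.24, with APOA4 at 4578, 1496, 1852, 468 and 1549 CPM in CPF against 655 to 9343 CPM (median 3496) in FS (-0.93 ± 0.48, p = 0.0637). Coagulation genes (11 tested, 0 passed) lay between -0.52 (PLAT) and 0.14 (F7). The most abundant transcripts, among them APOE, AHSG, FGG, COX1, COX3 and the unnamed ENSSSCG00000002749 and ENSSSCG00000030371, differed by -0.69 ± 0.46 to 0.52 ± 0.54, each within the spread.

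CHKA, the choline kinase that begins phosphatidylcholine synthesis, was lower in CPF. It was at 17, 11.1, 18.9, 18.7 and 16.1 CPM in CPF 1 to 5 and 14.3 to 57.1 CPM (median 23.1) in FS. All CPF libraries lay in the lower part of the FS range or under it, with 12 FS libraries above the highest. The fold change was -0.72 ± 0.29 (p = 0.0205), -0.76 without CPF 4 and -0.58 without the 6 libraries. CEPT1, which completes phosphatidylcholine, was the other of 9 phospholipid genes that passed (-0.33 ± 0.15, p = 0.032). All 9 were negative without CPF 4 (median -0.23), with CHKA and PISD at an unadjusted p under 0.05, while CEPT1 was not (p = 0.127).

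Heat shock proteins were lower in CPF in 23 libraries. All 12 tested had a negative fold change, 4 at an unadjusted p under 0.05 against 1.69% of all genes, and the median was -0.86. Beside HSPA8 these were HSPH1, DNAJA1 and DNAJB1, cochaperones and exchange factors of the HSP70 system. HSPH1 was at 33.9, 22.6, 108, 28.9 and 84.5 CPM in CPF against 35.7 to 1434 CPM (median 102) in FS (-2.13 ± 0.85, p = 0.0186). DNAJA1 was at 164, 169, 239.8, 151 and 298 CPM against 154 to 1956 CPM (median 340.2) (-1.29 ± 0.48, p = 0.012), and DNAJB1 differed by -1.54 ± 0.68. CPF 1, CPF 2 and CPF 4 were low for HSPH1 and CPF 3 and CPF 5 near the FS median. The median of the list was -0.80 without CPF 4 but -0.15 without the 6 libraries, where 2 were lower, HSPA8 (-0.90) and DNAJA1 (-0.69). In that set 2 were lower with survival as a term (median -0.20). Among its survivors 0 passed (median -0.19), with HSPA8 at -0.85 and DNAJA1 at -0.53. The list level was -0.34, -0.82, 0.12, -1.30 and -0.32 in CPF 1 to 5. In FS it ranged from -0.76 to 1.49 with a median of -0.01, and the 3 highest were FS 16 (1.49), FS 6 (1.35) and FS 14 (1.29), again libraries nearest to another time point.

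Endoplasmic reticulum chaperones lay above 0. Of 18 genes of the unfolded protein response 0 passed in 23 libraries (median 0.19), 4 were higher without CPF 4 (median 0.32) and 12 were higher without the 6 libraries (median 0.56, 0 lower). HSPA5 (BiP), the master chaperone of this compartment, was at 1981, 2059, 4752, 533 and 3462 CPM in CPF against 641 to 4173 CPM (median 1545) in FS, with 0.51 ± 0.35, 0.78 and 0.99 in the 3 sets. CPF 4 was the lowest of all 23 libraries and the other CPF libraries were above the FS median. CRELD2, a secreted stress marker, was at 91.6, 132, 646, 21.8 and 352 CPM in CPF and 49.3 to 467 CPM (median 119) in FS (0.80 ± 0.47, then 1.37). HSP90B1 (0.82), PDIA4 (0.76), SDF2L1 (0.90), HYOU1 (0.82) and DNAJB11 (0.69) had the same direction without the 6 libraries. XBP1, the transcription factor of the response, did not (-0.09, p = 0.577). The list level was 0.03, 0.24, 1.01, -0.92 and 0.39 in CPF 1 to 5 and -0.29 to 1.14 in FS. With survival as a term 6 of 18 were higher (median 0.37), and among survivors 1 (median 0.32).

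ATF4 targets, which answer amino acid shortage, had a median of 0.31 over 11 genes in 23 libraries with 0 passing, and of 0.64 with 4 higher without the 6 libraries. With survival as a term and among survivors alone 4 were higher too. SESN2 (0.83 ± 0.41, then 0.90), TRIB3 (0.43 ± 0.47, then 0.88), SLC3A2 (0.37 ± 0.29, then 0.75) and PSPH (0.67 ± 0.34, then 0.64) were the 4 in the first of these sets. Cytosolic ribosomal proteins (14 tested) moved from a median of 0.10 with 0 passing to 0.33 with 9 higher without the 6 libraries. With survival as a term 2 were higher, and among survivors 0. RPL14 was the highest, at 325, 563, 449, 301 and 389 CPM in CPF against 255 to 453 CPM (median 328) in FS (0.26 ± 0.15, then 0.45). CPF 2 was the highest library of all for this gene. Proteasome subunits (13 tested) went from 0.10 with 0 passing to 0.29 with 5 higher, among them PSMD14 (0.54) and PSMC1 (0.41), and to 0 passing among survivors.

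**Figure D4:**
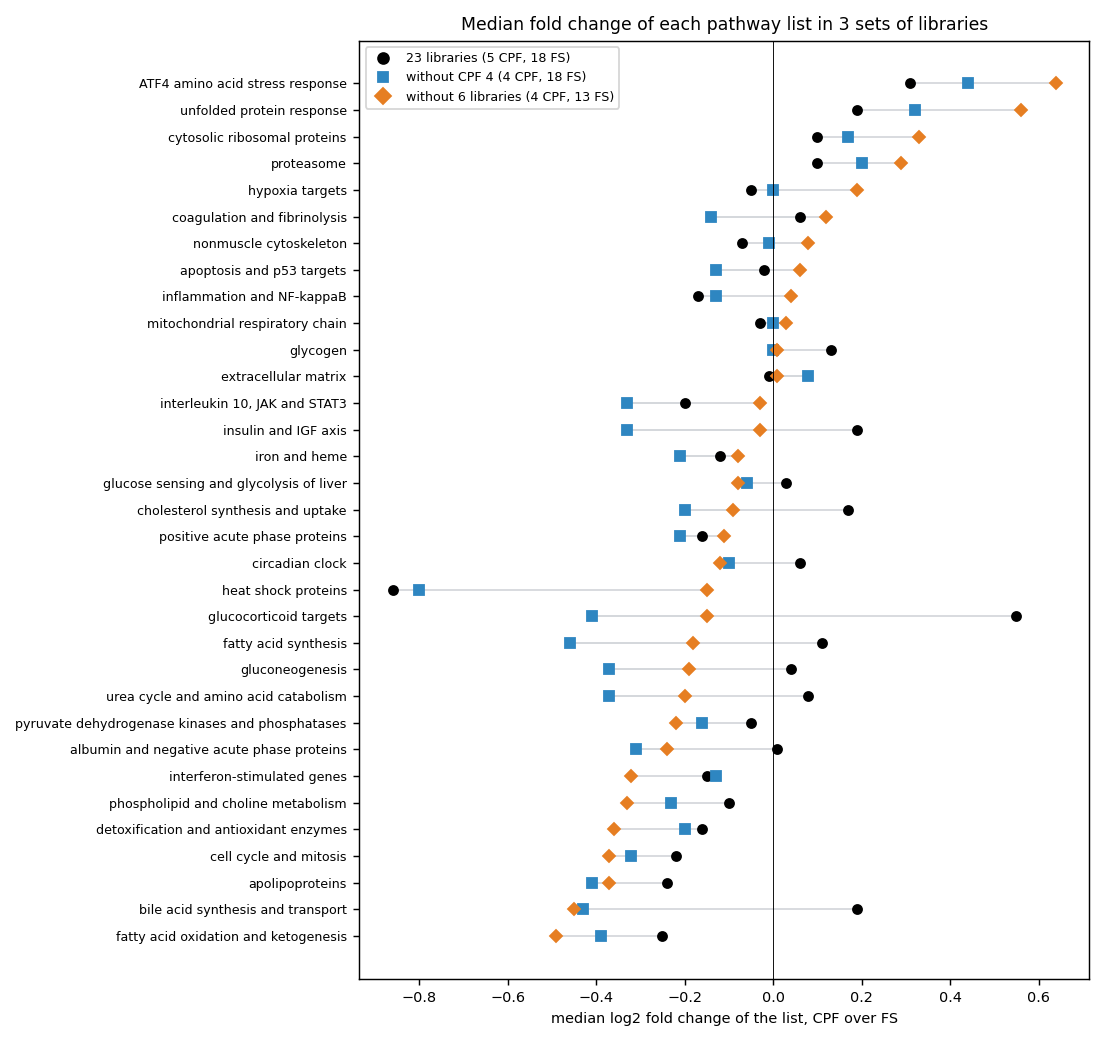
Median log2 fold change, CPF over FS (horizontal), of each pathway list (vertical) in 23 libraries (circles), without the library labelled CPF 4 (squares) and without 6 libraries (diamonds). Fatty acid oxidation lies below 0 and the unfolded protein response above 0 in all 3 sets, heat shock proteins move from -0.86 to -0.15, and glucocorticoid targets, bile acid genes and fatty acid synthesis change sign.

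Inflammatory genes showed no shared direction. Of 21 genes of inflammation and NF-κB 1 was higher, SELE, an endothelial adhesion molecule, at 0.387, 0.633, 9.08, 0 and 1.63 CPM in CPF and 0 to 3.76 CPM (median 0.483) in FS (1.65 ± 0.76, p = 0.0381), with CPF 3 as its highest library. NFKBIA, the inhibitor that NF-κB itself induces, was lower, at 34.3, 22.7, 36.5, 40.2 and 37.1 CPM in CPF against 30.5 to 132 CPM (median 43.9) in FS (-0.67 ± 0.29, p = 0.0302). The list median was -0.17, and 5 of 20 genes were higher without the 6 libraries, among them CXCL2 (1.68) and CCL2 (1.21). With survival as a term 1 was higher, and among survivors 0 (median -0.07). Of 12 genes of interleukin 10, JAK and STAT3 signaling 0 passed (median -0.20). STAT3 itself was at 113, 37.3, 115, 203 and 121 CPM in CPF and 87.8 to 376 CPM (median 162) in FS (-0.53 ± 0.29, p = 0.0792), and at -0.81 without CPF 4 (p = 0.0149). IL10, the anti-inflammatory cytokine, was at 0.425 to 1.38 CPM in CPF and differed by -0.25 ± 0.41. Interferon-stimulated genes were negative in 12 of 13 with 0 passing (median -0.15).

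Glucocorticoid targets changed sign with 1 library. In 23 libraries 3 of 10 were higher in CPF, TAT, SGK1 and TSC22D3, and the median was 0.55. Without CPF 4 it was -0.41, with 0 higher and 2 lower. TSC22D3 (GILZ), a direct target of the receptor, was at 21.8, 52.5, 26.2, 352 and 33.3 CPM in CPF against 14.2 to 131 CPM (median 31.3) in FS (1.20 ± 0.50, then -0.32). SGK1, a serum and glucocorticoid induced kinase, was at 27.5, 223, 99.2, 674 and 89.8 CPM in CPF against 13.6 to 552 CPM (median 43.1) in FS, and all CPF libraries but CPF 1 were above the FS median. Its fold change was 1.56 ± 0.63, 0.55 and 1.61 in the 3 sets. In the last set it was 1.46 with survival as a term (p = 0.00906) and 0.61 among survivors (p = 0.22, both edgeR's quasi-likelihood test). Over the list 2 were higher in that set (median -0.15), 1 with survival as a term (median -0.27) and 0 among survivors (median -0.05). Of 16 circadian clock genes 1 passed, RORA (1.09 ± 0.38, then -0.32). BMAL1 (1.26), CRY1 (1.18) and NFIL3 (0.81) were higher and DBP (-0.94) and CLOCK (-1.16) lower without the 6 libraries. In that set 1 clock gene was higher and 2 lower with survival as a term, and 0 and 0 among survivors. Hours of the day are not in the labels.

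Hypoxia targets (17 tested), apoptosis and p53 targets (14), detoxification genes (13) and iron and heme genes (9) had 0 passing in 23 libraries, with medians of -0.05, -0.02, -0.16 and -0.12. Without the 6 libraries 2 hypoxia targets and 3 apoptosis and p53 targets were higher and 0 lower. In that set 4 detoxification genes and 2 iron and heme genes were lower and 0 higher. With survival as a term these counts were 1, 2, 4 and 2, and among survivors 0, 0, 1 and 0. CYP1A2, a drug-metabolizing cytochrome, was at 17.6, 6.86, 5.07, 1287 and 15.6 CPM in CPF against 6.6 to 429 CPM (median 24.5) in FS and turned from 1.37 ± 1.01 to -3.19 without CPF 4 (p = 0.0147). NQO1, an antioxidant enzyme, was at 291, 452, 169.5, 45 and 534 CPM against 52.7 to 1581 CPM (median 434) (-0.75 ± 0.63). ADM, TNFRSF10B and ALAS1 were the lowest members of the other lists, at -0.51 ± 0.68, -1.13 ± 0.72 and -0.55 ± 0.43. Of 10 cell cycle genes 7 had a negative fold change (median -0.22, and -0.32 without CPF 4). In 23 libraries 2 were higher and without CPF 4 there were 0. The 2 were MYC, at 58.9, 152, 98.6, 192 and 154 CPM in CPF against 24.9 to 158 CPM (median 78.2) in FS (0.71 ± 0.32, p = 0.0341, and 0.54, p = 0.131 without CPF 4), and CCNE2 (1.25 ± 0.48, 0.08 without CPF 4). Nonmuscle cytoskeleton (22 tested), extracellular matrix (14) and mitochondrial respiratory chain genes (18) had 0 passing and medians of -0.07, -0.01 and -0.03, with ZYX (0.34 ± 0.18) and TUBA1B (-0.32 ± 0.29) at the ends of the first.

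**Figure D5:**
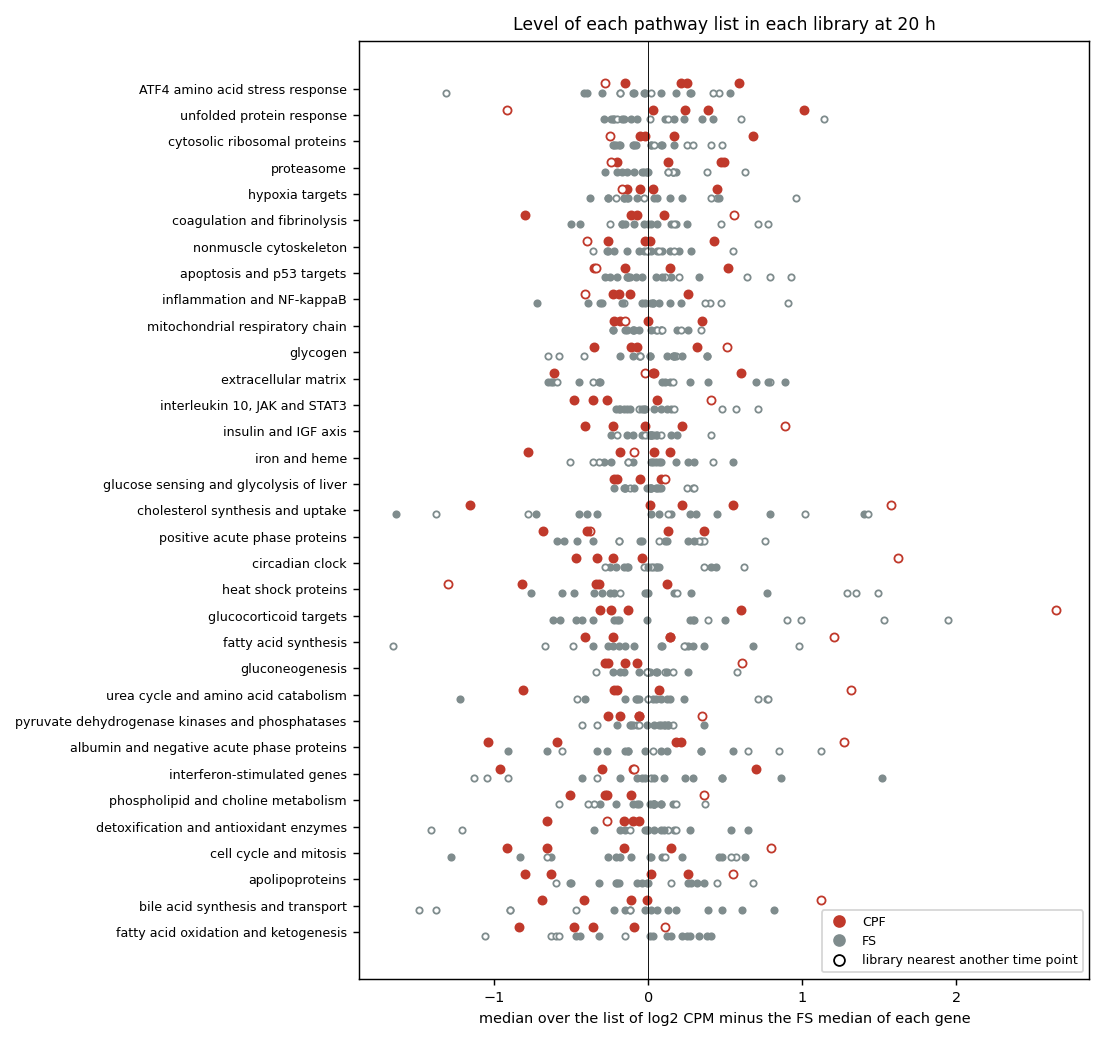
Level of each pathway list (vertical) in each library at 20 h, as the median over its genes of log2 CPM minus the FS median of the gene (horizontal), for CPF (red) and FS (gray). Open circles are the 6 libraries nearest to another time point, and CPF 4 is the highest library for the glucocorticoid (2.65), circadian clock (1.62) and fatty acid synthesis (1.21) lists and the lowest for heat shock proteins (-1.30) and the unfolded protein response (-0.92).

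Markers of other cells were measured in the same libraries. In bulk tissue fewer cells of a type and less RNA per cell cannot be told apart. Striated muscle markers passed the filter on low counts through a few FS libraries, so that their direction was fixed by it and their counts and p-values are not given. Their transcripts were nearly absent in CPF, with MYH7 at 0 in every CPF library and MYH1 at 0 in all but CPF 4 (0.106 CPM), and 8 FS libraries had a count of MYH7, up to 11.1 CPM. Smooth muscle and stellate genes summed to 190 to 675 CPM in CPF and 147 to 515 in FS, and 1 of 7 was higher, ACTA2, at 70.5, 170.4, 344, 137 and 73.5 CPM in CPF and 54.4 to 180.1 CPM (median 102) in FS (0.61 ± 0.27, p = 0.0314). For ACTA2 the highest CPF libraries were CPF 3 and CPF 2, the animals that died. Its fold change was 0.84 without the 6 libraries but -0.40 among survivors of that set. The list medians there were 0.56 and -0.08. TAGLN and DES differed by 0.30 ± 0.33 and 0.17 ± 0.23 in 23 libraries. Neutrophil markers summed to at most 24.3 CPM in CPF and to 6.66 to 71.0 in FS, with S100A9 and S100A12 at -1.04 ± 1.02 and -0.62 ± 0.89. The FS libraries highest for them were FS 14, FS 6, FS 16 and FS 13 (71.01, 54.26, 47.69 and 35.43 CPM), all nearest to another time point. Erythroid markers summed to 1404 CPM in CPF 4 and to at most 226.2 in the other CPF libraries, against 60.01 to 468 in FS, mostly HBB. Macrophage (6 tested), endothelial (7), T and NK cell (7), cholangiocyte (5) and adipocyte genes (3) had 0 passing, with medians of 0.10, -0.03, -0.12, 0.01 and -0.31. Their members ranged from -0.28 to 1.13, -0.32 to 0.32, -0.26 to 0.00, -0.63 to 0.69 and -0.59 to 0.11 in that order. Of 4 B and plasma cell genes POU2AF1 was lower (-0.49 ± 0.21, p = 0.0264), while MZB1 and CD79B stood at -0.57 ± 0.44 and 0.29 ± 0.51. With the striated muscle level as a term, 0 genes were called, and 6 of 151 named genes changed sign. With the hepatocyte level as a term it was 0 genes and 7 of 151. The part of the other cell types was not tested.

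The study names 25 genes between the fed states, 21 of which were tested at FR20. Since they were chosen on animals of this series they are not independent evidence. The median was -0.08, and 0 were higher in 23 libraries at an unadjusted p under 0.05. CHKA and ENO3 were lower. ACTA1, skeletal muscle actin, was at 0 to 0.286 CPM in CPF and up to 40.3 in FS, and passed the filter through FS libraries, which fixed its direction. ENO3, the muscle enolase, was at 1.55, 2.32, 2.22, 2.12 and 1.27 CPM in CPF against 1.48 to 13.2 CPM (median 2.56) in FS. Other genes of muscle and cytoskeleton lay within the spread, with TPM2 at 0.29 ± 0.24, FLNC at 0.05 ± 0.74, ASB5 at 0.18 ± 0.36, PDLIM3 at -0.20 ± 0.34, PYGM at -1.005 and TTC9 at 0.35 ± 0.39. Of the metabolic genes PFKM stood at 0.33 ± 0.24, GPD2 at -0.08 ± 0.26, PDK2 at 0.10 ± 0.38, GPAM, which starts triglyceride synthesis, at 0.11 ± 0.46 and HK2 at -0.16 ± 0.75. HSPD1, the mitochondrial chaperonin, was at -0.25 ± 0.24 and MYD88, an adaptor of Toll-like receptors, at -0.17 ± 0.16.

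2 genes were called without the 6 libraries. Beside ENSSSCG00000024853 this was S100G, a calcium-binding protein, at 0.129, 17, 1.79, 0.106 and 0.0707 CPM in CPF 1 to 5, with CPF 2 far above the other CPF libraries and a fold change of 5.41 (adjusted p = 0.0413, edgeR's quasi-likelihood test). In all FS libraries at FR20 it was at 0 to 10.35 CPM. On the scale of all 91 libraries its FR20 medians were 0.114 CPM in CPF and 0.105 in FS. With survival as a term, and among survivors alone, only ENSSSCG00000024853 was called. DESeq2 called 25 genes in that set, 9 higher and 16 lower. Among those lower were the fatty acid transporters SLC27A2 (-1.05, adjusted p = 0.045) and SLC27A6 (-1.76, 0.0133), PANK1, which makes coenzyme A (-1.10, 0.0091), and DHRS4 (-1.13, 0.0219). Among those higher were SGK1 (1.61, 0.0302), CCN1, a matricellular protein (1.47, 0.0229), NUCB2 (1.03, 0.0148) and MARCO, a scavenger receptor of Kupffer cells (2.25, 0.0419). The macrophage list as a whole did not move with MARCO. Without the 6 libraries 1 of its 6 genes was higher and 1 lower at an unadjusted p under 0.05 by edgeR's quasi-likelihood test (median 0.06). Among survivors of that set 0 passed (median 0.02).

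The FR20 difference was also set against the difference at Baseline and at FR8, in a fit of 91 libraries with a term for each animal. These comparisons share the FR20 libraries with the one above. At Baseline the libraries labelled FS 13, FS 14 and FS 16 stood apart, with median correlations of 0.588 to 0.688 with the libraries of any time point. FS Baseline libraries reached 25700 CPM for the muscle gene ACTA1 (median 0.165) and went down to 0.164 CPM for ALB (median 137000). For the change from B to FR20, edgeR's quasi-likelihood test called 0 of 13923 genes (0%). At an unadjusted p under 0.05 there were 502 (3.61%). The CPF change minus the FS change was above 0 for 341 of them and below 0 for 161. CHKA had the smallest p. On the scale of all 91 libraries it stood at a median of 43.9 CPM in CPF (36.5 to 116) and 15.5 in FS (4.97 to 37.4) at Baseline, where the CPF libraries were near or above the highest FS library. At FR20 the medians were 15.1 (9.92 to 17) and 20.5 (12.5 to 49.7), so CPF had gone from above FS to below it. The CPF change minus the FS change was -2.23 ± 0.47 (SE, log2 scale, adjusted p = 0.173, edgeR's quasi-likelihood test). The likelihood ratio test (adjusted p = 0.019) and DESeq2 (adjusted p = 0.00178) called it. Next came CCDC149 (-0.88 ± 0.21, adjusted p = 0.333) and TCAIM (-1.83 ± 0.43, adjusted p = 0.333). TCAIM had medians of 20.3 in CPF and 5.98 CPM in FS at Baseline and 6.49 and 7.74 at FR20. In the other direction stood OLFM3 (4.35 ± 1.06), STAMBP, a deubiquitinase (0.72 ± 0.19), and DENND2C (4.79 ± 1.32), whose medians were at most 0.557 CPM in every group of these time points. Without the animals FS 13, FS 14 and FS 16 the difference was -1.74 for CHKA, 3.73 for OLFM3 and 3.60 for DENND2C, and without the libraries nearest to another time point it was -1.62, 3.41 and 3.34.

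For the change from FR8 to FR20, 0 of 13923 genes were called (0%), with 322 (2.31%) at an unadjusted p under 0.05 and a smallest adjusted p of 1. MAPK14 had medians of 334 in CPF and 248 CPM in FS at FR8 and 136 and 180 at FR20, a difference of changes of -1.17 ± 0.36. These MAPK14 medians fell in both groups. HSPA8, which was not among the genes with the smallest p for this change, had medians of 160 and 89.4 at FR8 and 35.9 and 99.4 at FR20. Its median thus fell in CPF but not in FS. SUFU (-2.03 ± 0.64) and RESF1 (-1.09 ± 0.29) were the other 2 lower genes with the smallest p. MAP4K2 (1.39 ± 0.40), CUL7 (1.90 ± 0.57) and WDR31 (3.90 ± 1.25) were the 3 with the smallest p in the other direction. Of the libraries behind these changes 21 were nearest to another time point than their label, and without them 0 genes were called for either change. The difference then was 0.64 for MAP4K2 (p = 0.0868, edgeR's quasi-likelihood test), -0.64 for MAPK14, 1.38 for CUL7 and -2.22 for SUFU.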

How the data were processed

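Liver RNA was sequenced as single reads from oligo-dT libraries of 23 animals at 4 time points. Per the labels and methods, the authors aligned reads with TopHat 1.5.0 to Sscrofa10.2 after CASAVA 1.8.2, and deposited raw counts per Ensembl gene from HTSeq. The HTSeq mode and strand setting are not given in the sources used here. Symbols were found for 12504 of 25322 identifiers. Genes with a summed CPM under 10 over the libraries fitted were left out. CPF and FS were compared with edgeR 4.0.16 (TMM, quasi-likelihood test, Benjamini-Hochberg adjustment) in R 4.3.3, and a gene was called at an adjusted p under 0.05 and a 2-fold change. The changes between time points were fitted with a term for each animal on 91 libraries, without the FR8 library of CPF 1 that the study omitted. Alternatives used DESeq2 1.42.0 and limma 3.58.1, other filters and scalings, and fewer libraries. The scripts were tested on simulated data. No genome was used, so no coordinates are given.

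Genes are named by rule: the 10 higher and 10 lower with a symbol and the smallest p, the genes the study names, the extremes and the members at an unadjusted p under 0.05 of each list, abundant transcripts and markers, and the leading changes. Some genes the rule names are not reported here. Other genes were chosen after their values were seen. The comparison and the lists were chosen with earlier results of these data known.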

Additional observations from a re-analysis of the deposited data

Results flagged for a closer look

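Dixon's ratio was taken in the 5 CPF libraries at FR20. It is the gap between the outermost library and its nearest neighbour, divided by the range of the group, and values above 0.71 are listed here. For 5 normally distributed values chance exceeds that value in about 1 in 20 groups. CPM are skewed, and most named genes were chosen by their values in these same libraries, so that share is no yardstick here. Above the value were 31 of 147 named genes (21.1%) and 4 of 44 list levels (9.09%). The library labelled CPF 4 was the outermost one for 22 of the 31 genes. These were ACACA (0.891), ALAS2 (0.875), ALB (0.937), C3orf58 (0.953), CCNE2 (0.722), CYP1A2 (0.99), ETNK2 (0.72), FAM214A (0.933), FASN (0.967), FOXO1 (0.901), HBB (0.869), HBM (0.735), IGFALS (0.948), INSIG1 (0.963), LPIN1 (0.991), MYH1 (1), RORA (0.905), SIK1 (0.892), TAT (0.814), TF (0.714), TSC22D3 (0.907) and UGP2 (0.882). CPF 4 was also outermost for the levels of the circadian clock (0.794), gluconeogenesis (0.764) and adipocyte (0.744) lists. CPF 3 was outermost for ACADVL (0.847), DES (0.864), PLAT (0.753), PYGM (0.889) and SELE (0.821), and for the smooth muscle and stellate list (0.729). CPF 2 was outermost for COX3 (0.712), FAM98C (0.816) and FGB (0.736), and CPF 5 for FGF21 (0.932).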

How the results depend on the processing

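For the comparison at FR20, 0 genes were called in 23 libraries and 400 had an unadjusted p under 0.05 by edgeR's quasi-likelihood test. DESeq2 called 2 genes (MBL2 and ENSSSCG00000011673), the likelihood ratio test of edgeR 4 (among them these and ENSSSCG00000024853) and limma voom with quality weights 3. Alternatives chosen after seeing the data called 1 gene without CPF 4, FS 13, FS 14 and FS 16, and 2 without the 6 libraries nearest to another time point. Without these 6, DESeq2 called 25, limma voom 2, the fit with survival as a term 1 and the fit of survivors alone 1. Of the alternatives at FR20, 32 called 0, and 9 differed in their count. Leaving out each library in turn called 0 throughout, with 347 to 514 genes at an unadjusted p under 0.05 over the CPF libraries and 366 to 449 over the FS libraries. The sign of the fold change turned for 29 of 151 named genes without CPF 4. For the change from B to FR20 DESeq2 called 12 genes and the likelihood ratio test 1, and for the change from FR8 to FR20 DESeq2 called 22, while the other alternatives called 0. Of these DESeq2 calls 7 of 12 and all 22 had a fitted log2 value beyond 10 in size, among them the muscle genes TNNC1 and TNNI1, and such values are not effect sizes. At an unadjusted p under 0.05, leaving out each CPF animal gave 394 to 596 and 172 to 434 genes. Where the count of calls moved between tools on the same libraries, the cause was not tested. No paired analysis was possible at FR20 because by the labels each animal gave 1 library. The changes were fitted with a replicate block for each animal, and without the replicate block 0 genes were called for either change, with 858 and 336 at an unadjusted p under 0.05. The median standard error of the log2 fold change at FR20 was 0.265.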
